A study of Mus musculus with 289 samples.

Results

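The S and G2/M genes of the cell cycle were described in single keratinocytes of mouse tail epidermis that descended from Lrig1-positive stem cells, after treatment of the skin with PRT4165 or with vehicle. The members were 46 genes, chosen by symbol out of the 15019 genes in the deposited table, and all of them were found in it. They comprised 16 S phase genes, 28 genes of G2 and mitosis, and 2 genes outside both programmes, Ccnd1 and Stmn1. The mice carried Lrig1-EGFP-ires-CreERT2 and Rosa26-fl/STOP/fl-tdTomato on a mixed CBA and C57BL/6 background. A topical dose of hydroxytamoxifen on the tail switched on tdTomato in cells that used the Lrig1 promoter, the promoter that drives the Cre, and in their descendants. The methods of the study describe unwounded adult skin that then received repeated topical PRT4165, which blocks the Ring1a and Ring1b ligases of Polycomb repressive complex 1, or its vehicle, with cells taken hours after the last dose. Both groups therefore shared the reporter, the Cre, the tamoxifen and the repeated topical applications, and their labels differed in the treatment and in a code, PR9 for vehicle and PR12 for PRT4165, that is not explained.

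Each library was 1 sorted tomato-positive cell. There were 4 plates, 2 for vehicle and 2 for PRT4165, and each treatment had a replicate 1 and a replicate 2. Of 289 cells, 274 were kept, 70 and 55 on the vehicle plates (replicates 1 and 2) and 72 and 77 on the PRT4165 plates in the same order. The median count per cell was lowest on vehicle replicate 1, at 141985, and lay between 429383 and 538754 on the other plates. Since no plate held both treatments, the plate cannot be told apart from the treatment, and the labels do not tie the plates to animals. The study describes independent experiments, each with several biological replicates. The cells were keratinocytes by their markers, with Krt14 counted in 93.1% and Krt5 in 73.7% of them. Ptprc, Col1a1 and Pmel, which mark leukocytes, fibroblasts and melanocytes, were each counted in 4.74% of cells. Wider lists had counts in more cells. In the plate order above, any of 5 fibroblast markers had a count in 20, 25, 26 and 32 cells. Any of 3 melanocyte markers did so in 20, 17, 29 and 22 cells, and any of 2 immune markers in 3, 4, 3 and 4. Pecam1, an endothelial marker, was listed differently and was counted in all 274 cells, at 210.2 to 609 CPM of the plate sums (CPM being counts scaled to an equal library total). A count in every keratinocyte is unusual for this gene, whether it came from the quantification was not tested, and it is not read here as a sign of endothelial cells.

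In a dividing keratinocyte, genes that license and copy the genome are switched on by E2F factors as the cell enters S phase, and genes that condense, attach and separate the chromosomes follow in G2 and mitosis, many of them through promoters with a CHR element and CCAAT boxes. In epidermis, division belongs mainly to the basal layer and the hair follicle, and cells leave the cycle as they move upwards and differentiate. Messenger RNA of the G2/M genes is low outside the dividing cell, whereas genes such as Pcna and Ccnd1 are also transcribed in cells that are not dividing.

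The promoters of the members differed along these lines in their letters alone. RefSeq promoters, from 250 bases before to 50 bases after a start site, were matched for 37 of the 46 members, giving 15 promoters of S members and 25 of G2/M members among 32851 in the mouse genome. On either strand, an E2F site, taken as TTTCCCGC or TTTGGCGC, was present in 40% of the S promoters, 0 of the 25 G2/M promoters and 1.56% of all promoters. Only these 2 spellings were searched, so the 0 does not exclude E2F sites of another spelling in the G2/M promoters. A CHR, taken as TTTGAA or TTCGAA, was present in 13.3% of the S promoters, 80% of the G2/M promoters and 19.2% of all promoters. The CCAAT box, CCAAT, was present in 73.3%, 88% and 37.4% of them, and 19 of the G2/M promoters held it together with a CHR. A match describes the letters of the window and is not evidence of binding. Shown here are 2 S promoters with an E2F site and 2 G2/M promoters with a CHR, from RefSeq on GRCm38.p6, each 5′ to 3′ on the strand of its gene. Capitals mark the E2F sites, CHRs and CCAAT boxes of both strands in the spellings given above. Mcm5 lies at chr8:75109259-75109558 on the plus strand, Mcm6 at chr1:128359656-128359955, Cdk1 at chr10:69352863-69353162 and Top2a at chr11:99024140-99024439, and all but Mcm5 are on the minus strand.
Mcm5: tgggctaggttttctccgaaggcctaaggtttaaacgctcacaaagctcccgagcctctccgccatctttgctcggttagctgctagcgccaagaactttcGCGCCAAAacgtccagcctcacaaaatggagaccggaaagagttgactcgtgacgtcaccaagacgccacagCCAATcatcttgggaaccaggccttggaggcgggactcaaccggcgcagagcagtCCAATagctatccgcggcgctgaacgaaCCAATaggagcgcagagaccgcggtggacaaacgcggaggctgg
Mcm6: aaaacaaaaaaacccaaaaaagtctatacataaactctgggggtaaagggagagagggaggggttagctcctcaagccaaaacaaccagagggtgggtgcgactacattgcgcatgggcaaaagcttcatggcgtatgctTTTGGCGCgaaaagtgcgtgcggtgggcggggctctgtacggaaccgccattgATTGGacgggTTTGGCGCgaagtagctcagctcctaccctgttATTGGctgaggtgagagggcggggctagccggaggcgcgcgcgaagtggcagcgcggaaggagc
Cdk1: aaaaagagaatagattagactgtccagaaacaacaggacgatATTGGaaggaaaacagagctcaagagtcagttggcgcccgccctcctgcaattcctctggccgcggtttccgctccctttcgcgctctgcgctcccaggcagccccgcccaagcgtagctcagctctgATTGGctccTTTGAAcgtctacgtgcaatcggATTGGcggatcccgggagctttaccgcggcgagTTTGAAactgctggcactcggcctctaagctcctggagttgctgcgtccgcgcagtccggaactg
Top2a: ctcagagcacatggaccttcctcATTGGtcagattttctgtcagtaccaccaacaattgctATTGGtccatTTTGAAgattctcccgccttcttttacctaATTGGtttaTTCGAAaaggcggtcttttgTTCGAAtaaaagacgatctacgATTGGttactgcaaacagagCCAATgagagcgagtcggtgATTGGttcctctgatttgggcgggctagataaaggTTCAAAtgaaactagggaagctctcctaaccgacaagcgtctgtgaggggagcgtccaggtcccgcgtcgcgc
The Mcm6 window holds TTTGGCGC in 2 places, and the Mcm5 window holds it once, on the other strand. The Cdk1 window holds TTTGAA in 2 places, and it also holds TTTCGCGC, a related spelling that was not searched and stands in lower case. The Top2a window holds both spellings of the CHR, and TTCGAA reads the same on both strands.

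To ask how many cells were in each programme, the members at 10 CPM or more were counted in every cell. A cell was placed in the S programme with at least 4 of the 16 S members, and in the G2/M programme with at least 7 of the 28 G2/M members, which is 25% of each. Over all plates 69 cells were in the S programme, 29 in the G2/M programme, 21 in both, 77 in either and 197 in neither. The S count was a range without a gap at the limit, since 29 cells had 3 S members and 16 had 4. The G2/M count was sparser there, with 4 cells at 6 members, 4 at 7, and 16 of the 29 cells at 14 or more.

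**Figure D1:**
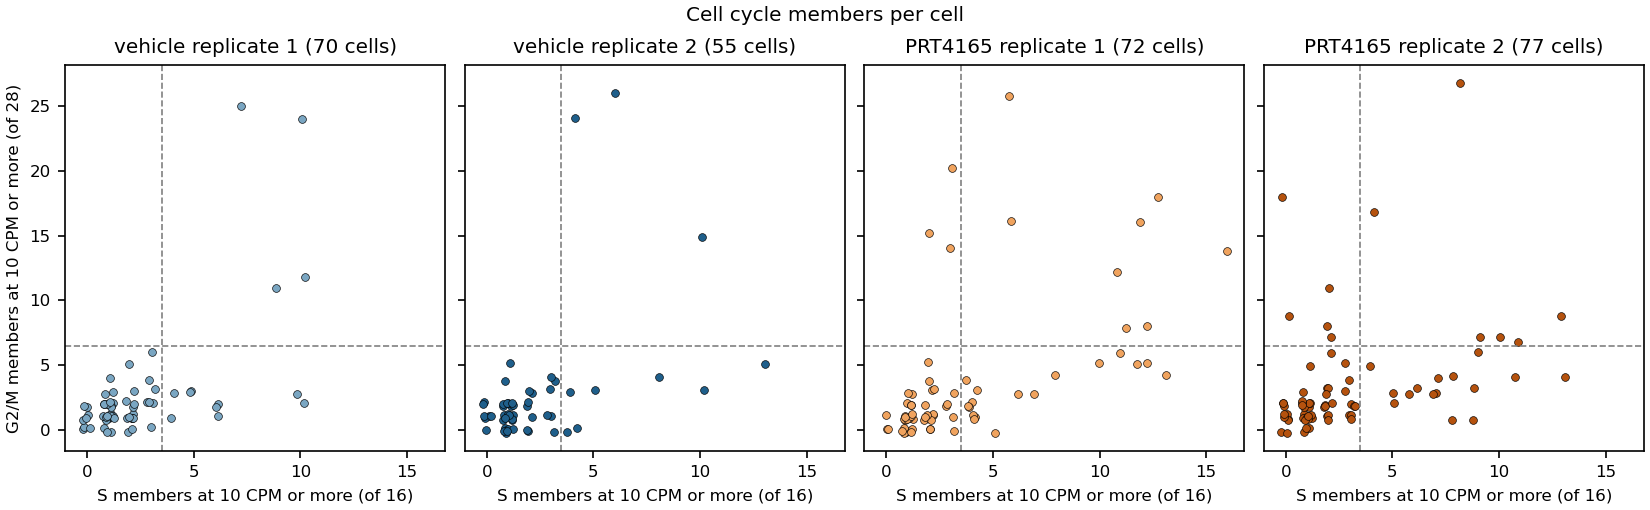
Members per cell on the 4 plates, 1 panel a plate and 1 point a cell, slightly jittered. The x axis counts S members and the y axis G2/M members at 10 CPM or more, and dashed lines mark the limits of 4 and 7. The 7 vehicle cells above the horizontal line also lie right of the vertical line, and on PRT4165 replicate 2 there are 7 cells with 7 to 9 G2/M members.

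The 2 counts rose together across cells. Spearman's rho between S and G2/M members was 0.54 over the 274 cells and 0.40 to 0.66 within the plates, a description over points that share plates and differ in depth. All 7 vehicle cells in the G2/M programme were also in the S programme. On the PRT4165 plates 14 of 22 were in both, and 3 cells on replicate 1 and 5 on replicate 2 were in G2/M alone. The cell with most G2/M members had 25, 26, 26 and 27 of the 28 on vehicle replicates 1 and 2 and PRT4165 replicates 1 and 2, so that each plate held at least 1 cell with nearly the whole programme.

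The share of cells in the S programme was 18.6% on vehicle replicate 1 (13 of 70, Wilson 95% interval 11.2 to 29.2) and 18.2% on vehicle replicate 2 (10 of 55, 10.2 to 30.3). It was 34.7% on PRT4165 replicate 1 (25 of 72, 24.8 to 46.2) and 27.3% on PRT4165 replicate 2 (21 of 77, 18.6 to 38.1). Both PRT4165 plates were above both vehicle plates, and the means were 31% ± 5.27 (SD, n = 2) and 18.4% ± 0.275 (SD, n = 2), a difference of 12.6 percentage points. The counting intervals of the plates overlapped. The sort kept live single cells within a size gate, and a share of dividing cells depends on where that gate lay.

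The G2/M programme took 5.71% of cells on vehicle replicate 1 (4 of 70, Wilson 95% interval 2.24 to 13.8) and 5.45% on vehicle replicate 2 (3 of 55, 1.87 to 14.9). It took 15.3% on PRT4165 replicate 1 (11 of 72, 8.75 to 25.3) and 14.3% on PRT4165 replicate 2 (11 of 77, 8.17 to 23.8). The means were 14.8% ± 0.701 and 5.58% ± 0.184 (SD, n = 2 each), 9.20 percentage points apart, with no overlap between the plates of the treatments. With 2 plates against 2, an exact two-sided permutation test cannot go below p = 0.333, and no test was made of these shares.

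The G2/M difference was of unlike strength in the 2 replicates. In cells of the G2/M programme, the median summed level of the G2/M members was 6252 and 15214 CPM on vehicle replicates 1 and 2. It was 6397 CPM on PRT4165 replicate 1 and only 1635 CPM on PRT4165 replicate 2. PRT4165 replicate 1 had 9 cells with 10 or more G2/M members and PRT4165 replicate 2 had 4, against 4 and 3 cells on vehicle replicates 1 and 2. At that stricter limit, 33% of the members, the shares were 5.71% and 5.45% for vehicle and 12.5% and 5.19% for PRT4165, so PRT4165 replicate 2 no longer stood above the vehicle plates. The S programme still stood apart at 33% of its members, with 12.9% and 9.09% for vehicle against 22.2% and 22.1% for PRT4165. With each member counted only at 50 CPM or more, the S shares were 17.1% and 9.09% for vehicle and 20.8% and 15.6% for PRT4165, and the plates of the treatments overlapped.

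Depth was measured beside these shares because vehicle replicate 1 was the shallowest plate. Each cell was therefore thinned to 50000 nuclear-encoded counts, and 11 and 1 cells of the vehicle plates and 11 and 5 cells of the PRT4165 plates were too shallow for this and were left out. The S shares were then 18.6% and 18.5% for vehicle and 41% and 34.7% for PRT4165. The G2/M shares were 3.39% and 5.56% for vehicle and 14.8% and 13.9% for PRT4165. Both differences were as large at equal depth as without thinning.

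**Figure D2:**
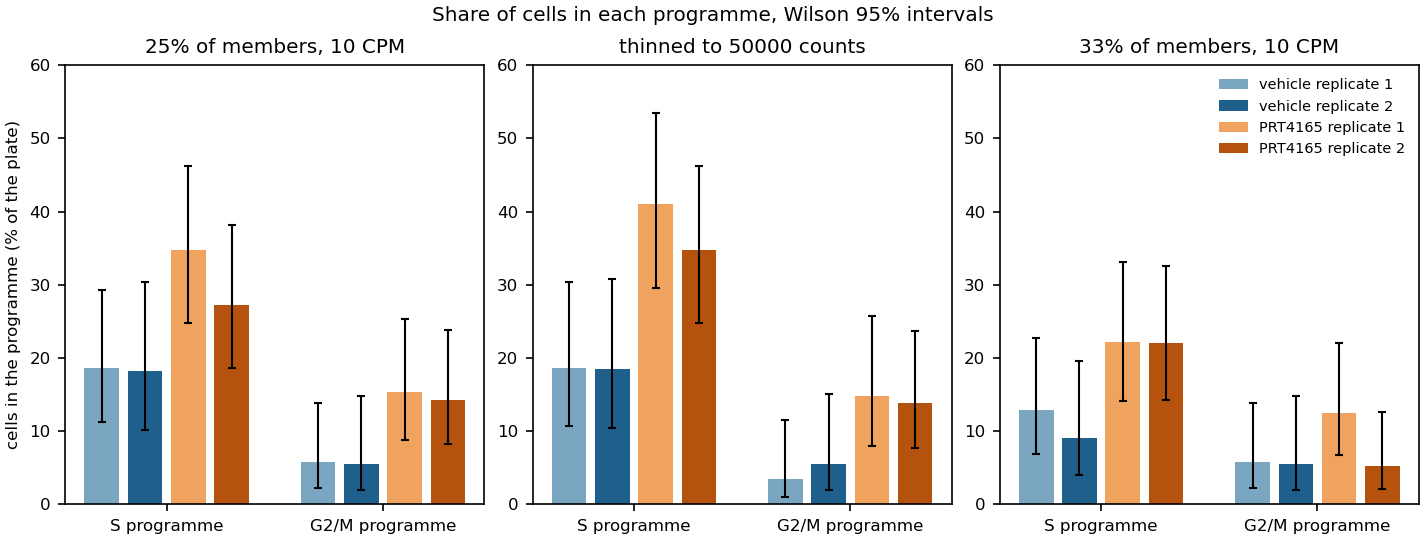
Percentage of cells in the S and the G2/M programme on each plate, with Wilson 95% intervals for counting error, under the limit of 25% of members, at equal depth, and under a limit of 33% of members. The 2 PRT4165 plates stand above the 2 vehicle plates in every panel except for G2/M at 33%, where PRT4165 replicate 2 is at 5.19%.

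Mki67, the antigen behind the Ki-67 proliferation stain, gave a less clear split on its own. At least 1 Mki67 count was found in 8.57% and 18.2% of cells with vehicle (replicates 1 and 2) and in 22.2% and 14.3% with PRT4165. The groups overlapped, and the difference of 4.88 percentage points had an exact two-sided permutation p = 0.667 over plates.

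Members differed widely in how closely their counts were tied to the programme cells. This tie is partly fixed by the rule that placed the cells, and it is given as a description. Over 90% of all counts came from the 77 programme cells for 23 of the 28 G2/M members and for 8 of the 16 S members. Cdk1, the kinase that drives entry into mitosis, had 99.6% of its counts there, Top2a, the topoisomerase that untangles replicated DNA, 99.2%, and Cdt1, which loads the replicative helicase, 99.5%. At the other end, Pcna, the sliding clamp of DNA polymerase, had 53.8% of its counts in programme cells and was at 10 CPM or more in 92.2% of programme cells and in 70.1% of the rest.

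Several G2/M members behaved like Pcna. Hmgb2, a chromatin protein, had 72.1% of its counts in programme cells, and Cks1b and Cks2, small partners of the cyclin-dependent kinases, had 68.3% and 80.4%. Stmn1, which destabilizes microtubules, had 80.2%. Ccnd1, the cyclin that carries growth signals into G1, had 25.8% of its counts in programme cells and reached 10 CPM in 36.4% of programme cells and 26.4% of the rest. Reads of Pcna and Cks1b can be shared with near-identical processed copies, and their levels are uncertain to that extent.

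To compare levels between treatments, the counts of each plate's cells were summed, scaled to CPM by TMM factors and tested with edgeR's quasi-likelihood test across 12791 genes. CPM is not divided by gene length, so levels are compared only between plates. In such sums, more cells in a programme and more RNA in each of those cells cannot be told apart. No member passed an adjusted p of 0.05 and neither did any other gene (0%). The smallest adjusted p among the members was 0.869, in edgeR's test, for Rrm2. At an unadjusted p under 0.05 there were 4 members higher with PRT4165 and 0 lower, beside 2.79% of all genes higher and 2.13% lower.

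By direction the members stood to one side. The fitted log2 fold change was above 0 for 44 of the 46 members, against 49.4% of all genes tested, and its median was 1.12 beside -0.02 for all genes. Without vehicle replicate 1, vehicle replicate 2 or PRT4165 replicate 1 the median was 0.52, 1.91 or 0.61, and the members higher at an unadjusted p under 0.05 numbered 1, 11 or 1. With all plates the median was 1.24 for the S members and 0.93 for the G2/M members. Both PRT4165 plates were above both vehicle plates for 21 of the 46 members, 10 of them S members, 10 G2/M members and the last Stmn1, where 16.4% of all genes did so. For 0 members were both PRT4165 plates below, against 15.6% of all genes. The members were not independent of each other, since most of their counts came from the same few cells.

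The replicates again differed. Within replicate 1, PRT4165 was above vehicle for 46 of 46 members, and within replicate 2 for 24 of 46. The S members were higher within replicate 2 in 12 of 16 cases and the G2/M members in 11 of 28. Among all genes PRT4165 was higher for 50.6% within replicate 1 and 50.02% within replicate 2. The shared number pairs these plates by label. Across 14382 genes, the difference between replicates in vehicle correlated with that in PRT4165 at r = 0.04. The counts within a replicate thus depend on which plates share a number.

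**Figure D3:**
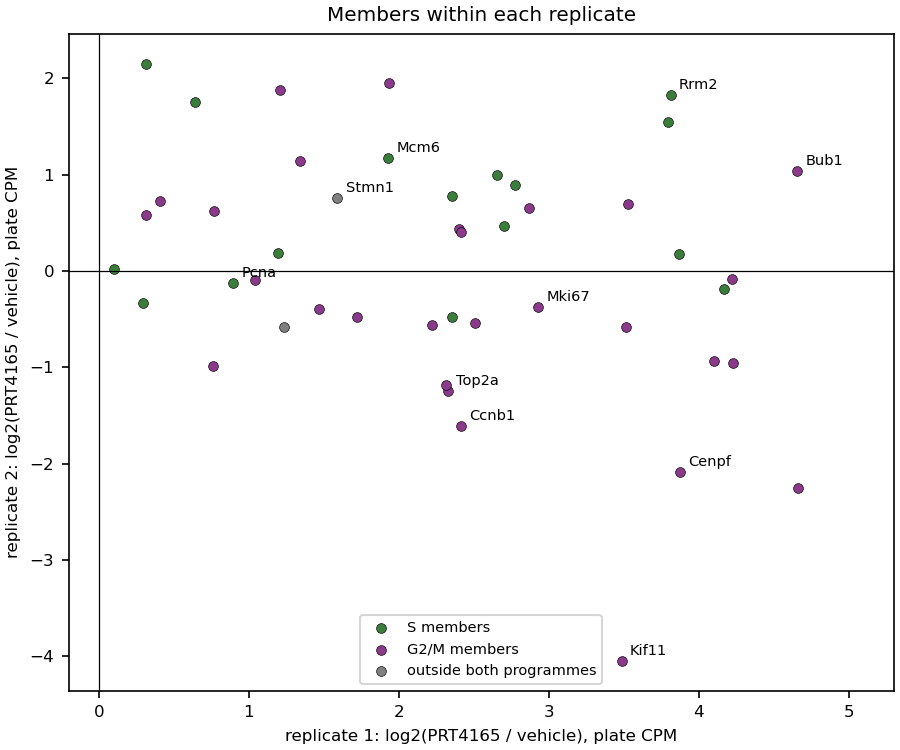
Each point is a member, at its log2 ratio of PRT4165 to vehicle (TMM-scaled CPM of the plate sums) within replicate 1 on the x axis and within replicate 2 on the y axis. All 46 points lie right of 0, and 24 lie above 0, with Kif11 lowest at -4.05 in replicate 2.

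Among genes that prepare and copy DNA, Rrm2, the inducible subunit of the enzyme that makes deoxynucleotides, was at 3.42 and 4.84 CPM on vehicle replicates 1 and 2 and at 48.1 and 17.1 CPM on PRT4165 replicates 1 and 2. Its plates did not overlap, and the log2 fold change was 2.98 (SE 0.87, edgeR unadjusted p = 0.0088, adjusted p = 0.869). A single cell gave 41.98% to 53.8% of the Rrm2 counts on every plate. DESeq2 on the same sums gave Rrm2 an adjusted p of 0.0225.

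Mcm6, a subunit of the replicative helicase, was at 16.02 and 15.7 CPM with vehicle and at 61.1 and 35.4 CPM with PRT4165. It did not overlap either, with a log2 fold change of 1.60 (SE 0.68, edgeR unadjusted p = 0.0446, adjusted p = 0.997). The other helicase subunits were less uniform. Mcm2, Mcm5 and Mcm7 were higher on both PRT4165 plates, and Mcm3 and Mcm4 overlapped between treatments.

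Tyms, which makes thymidylate, was at 17.7 and 53.9 CPM with vehicle and at 90.3 and 92.7 CPM with PRT4165. Uhrf1, which guides maintenance of DNA methylation behind the fork, was at 6.38 and 16.1 CPM with vehicle and at 43.6 and 29.96 CPM with PRT4165. Both PRT4165 plates were the higher for both genes, with log2 fold changes of 1.35 (SE 0.68) and 1.71 (SE 0.78) and an edgeR adjusted p of 0.997 each.

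Rrm1, the large subunit of the same enzyme as Rrm2, overlapped between treatments, at 30.4 and 25.5 CPM with vehicle and 69.4 and 29.0 CPM with PRT4165. Pcna, the broadest member, was at 418 and 378 CPM with vehicle and at 778 and 346 CPM with PRT4165. PRT4165 replicate 1 was the highest plate for both and PRT4165 replicate 2 lay within or below the vehicle plates. Of the remaining S members, Ccne1, Ccne2 and Cdt1, which act at S phase entry and origin licensing, were higher on both PRT4165 plates, whereas Cdc6 and Gins2 overlapped.

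Among the genes of mitotic entry and chromosome structure, Mki67 was at 16.7 and 68.5 CPM with vehicle and at 126.8 and 52.9 CPM with PRT4165. Top2a was at 23.2 and 54.7 CPM with vehicle and at 116 and 23.0 CPM with PRT4165. In both genes PRT4165 replicate 1 was the highest plate and PRT4165 replicate 2 fell below vehicle replicate 2, so that the log2 fold changes of 1.08 (SE 0.80) for Mki67 and 0.84 (SE 0.85) for Top2a were near their errors.

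Cdk1 was at 4.95 and 17.0 CPM with vehicle and at 26.1 and 23.1 CPM with PRT4165, without overlap. A single cell gave 75.2%, 84.2%, 39.1% and 67.8% of the Cdk1 counts on these plates. Ccnb1, the cyclin that activates Cdk1, overlapped, at 13.0 and 78.7 CPM with vehicle and 69.2 and 25.8 CPM with PRT4165. A single cell supplied 88.4% of the Ccnb1 counts on vehicle replicate 2 and 82.7% on vehicle replicate 1. The log2 fold change was 1.16 (SE 0.85) for Cdk1 and 0.05 (SE 0.91) for Ccnb1.

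Among kinetochore and checkpoint genes, Cenpf was at 6.98 and 39.4 CPM with vehicle and at 102.4 and 9.30 CPM with PRT4165. Cenpe, a kinetochore motor, was at 5.28 and 45.0 CPM with vehicle and at 99.1 and 23.2 CPM with PRT4165. For both genes PRT4165 replicate 1 was high and PRT4165 replicate 2 lay between the vehicle plates. Bub1, a checkpoint kinase, was at 0.634 and 0.517 CPM with vehicle and at 15.99 and 1.06 CPM with PRT4165, and its log2 fold change of 3.88 (SE 1.5, edgeR unadjusted p = 0.0312, adjusted p = 0.985) rested on PRT4165 replicate 1, where 1 cell gave 91.0% of the counts.

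Of the broadly counted G2/M members, Cks1b was at 31.2 and 33.6 CPM with vehicle and at 41.2 and 55.5 CPM with PRT4165, without overlap. Cks2 was at 45.99 and 67.7 CPM with vehicle and at 94.8 and 63.3 CPM with PRT4165, and Hmgb2 at 151.4 and 301 CPM with vehicle and at 419 and 228 CPM with PRT4165. Cks2 and Hmgb2 overlapped between treatments, and the log2 fold changes of the 3 genes were 0.58 (SE 0.61), 0.48 (SE 0.57) and 0.52 (SE 0.55), all within their errors. The other G2/M members that were higher on both PRT4165 plates were Ccnb2, Ube2c, Aurkb, Tpx2, Nusap1, Cdca8 and Oip5. A single cell gave 100% of the Aurkb counts on each vehicle plate. It gave 98.4% of the Ube2c counts on vehicle replicate 2 and 86.3% on PRT4165 replicate 2. For Tpx2 the share from 1 cell was 87.2% on PRT4165 replicate 2, and for Ccnb2 it was 27.7% to 72.2% over the plates. The only members with a fitted log2 fold change below 0 were Bub1b, at -0.55 (SE 1.37), and Kif11, at -0.96 (SE 1.41).

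Outside both programmes, Stmn1 was at 86.8 and 127.4 CPM with vehicle and at 261 and 215 CPM with PRT4165, without overlap, with a log2 fold change of 1.15 (SE 0.50, edgeR unadjusted p = 0.0485, adjusted p = 0.997). Ccnd1 was at 19.996 and 69.9 CPM with vehicle and at 47.1 and 46.7 CPM with PRT4165. Both PRT4165 plates of Ccnd1 lay between the vehicle plates.

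**Figure D4:**
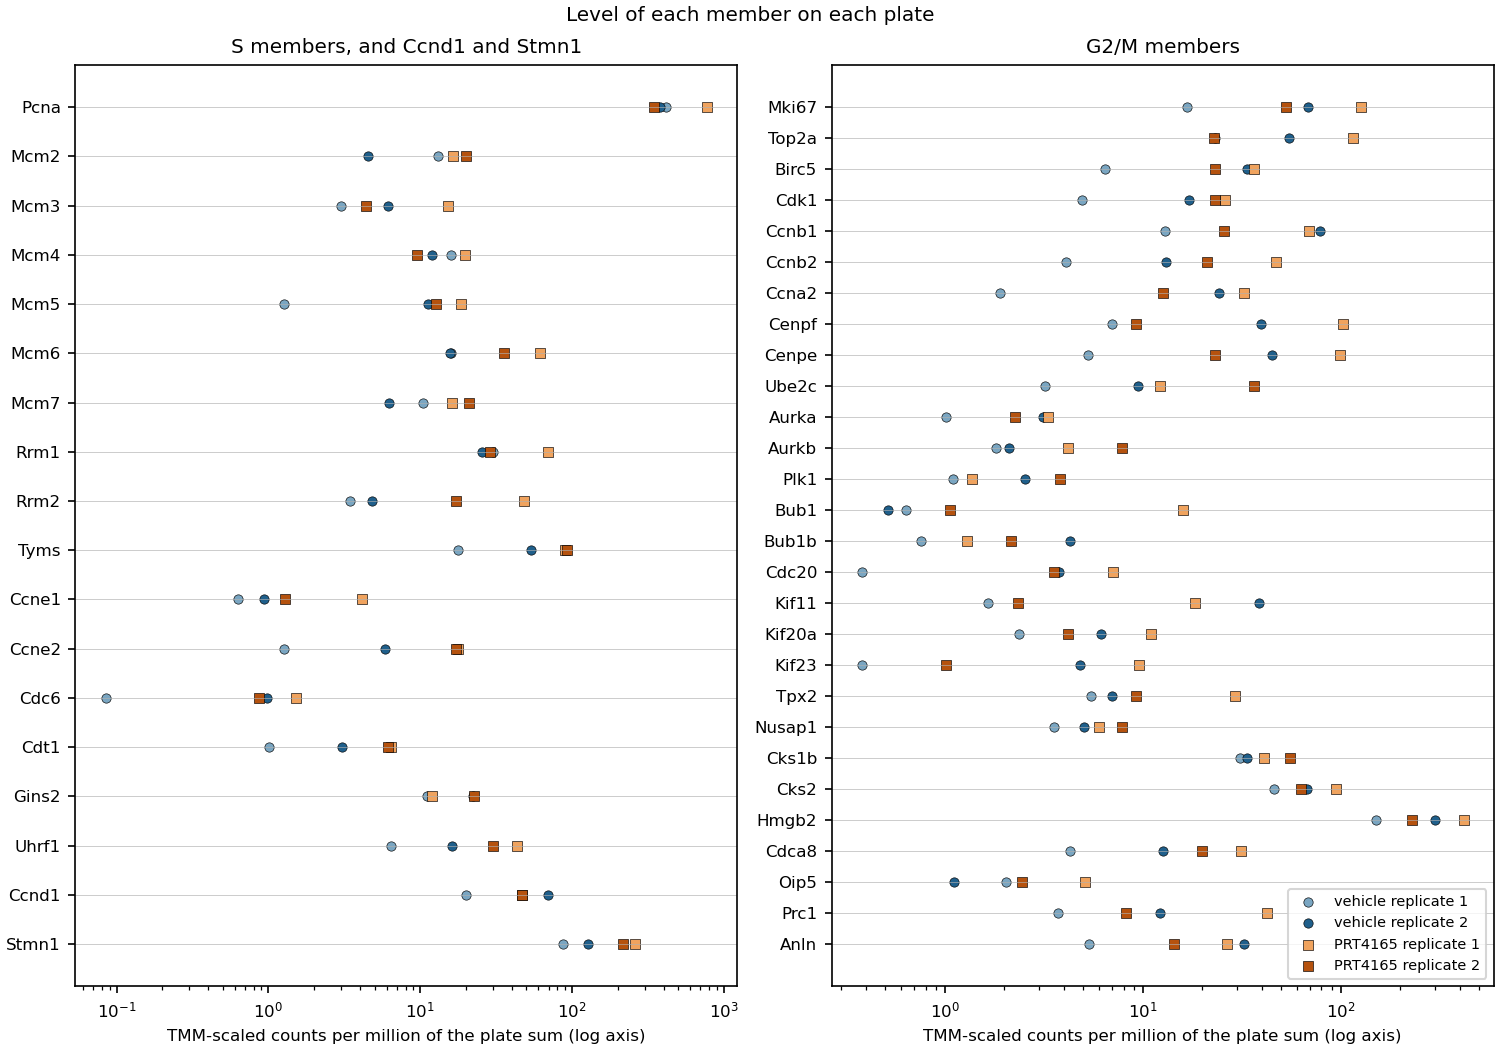
TMM-scaled CPM of the plate sums on a log axis for all 46 members, with circles for the vehicle plates and squares for the PRT4165 plates. Vehicle replicate 1 is the lowest plate for many G2/M members, and PRT4165 replicate 1 the highest.

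Cell cycle genes that are not members were counted from wider lists, in which no gene passed an adjusted p of 0.05 in edgeR. Of 50 other S phase genes tested, 6 were higher with PRT4165 at an unadjusted p under 0.05 and 0 lower, beside the 2.79% and 2.13% of all genes, and the median log2 fold change was 0.60. Among these were Pole, Rpa3, Rfc4 and Tipin, all with roles in DNA synthesis. Pole, the catalytic subunit of DNA polymerase epsilon, was at 0.845 and 1.14 CPM with vehicle and at 22.5 and 23.7 CPM with PRT4165, with an edgeR adjusted p of 0.862. Of 69 other G2/M genes, 3 were higher, a share near that of all genes, and 0 lower with a median of 0.49, and of 13 G1 genes 0 were higher or lower with a median of 0.22.

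Marker lists of the epidermal compartments were set beside the treatment difference. The summed level of the 9 upper hair follicle markers was 54877 to 59843 CPM on the vehicle plates and 30471 to 41559 CPM on the PRT4165 plates, and the sums of the suprabasal, basal, bulge and sebaceous gland markers overlapped between treatments. Gene by gene, the fitted log2 fold change was above 0 for 1 of 10 basal markers (median -0.40) and 1 of 9 upper hair follicle markers (median -0.70). It was above 0 for 5 of 10 suprabasal, 4 of 8 bulge and 6 of 10 sebaceous gland markers, beside 49.4% of all genes. Cst6 and Defb6 weighed most in the upper hair follicle sum. In the cells of neither programme they were at 26959 to 52571 CPM and 9445 to 29751 CPM. The 5 fibroblast, 2 immune and 3 melanocyte markers in the table summed to at most 84.3, 1.11 and 35.3 CPM on any plate. The part of the compartments in the level of the members was not tested.

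To see which cells carried the programmes, genes outside the member list were compared between the 77 programme cells and the 197 others. The cells were split by the members, so these differences describe that split in the same cells. Programme cells had more counts than the others on 3 of the 4 plates, with medians of 189307 against 138137 and 839254 against 501445 for vehicle and 443576 against 385223 for PRT4165 replicate 1. On PRT4165 replicate 2 the medians were 516652 and 547780. The counts of each class were summed per plate and fitted in edgeR with the plate as a block, over 11040 genes.

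Genes of the cycle that were not used to split the cells stood with the members. Of 46 other S phase genes 31 were higher in programme cells on all 4 plates, and of 59 other G2/M genes 48 were, beside 8.93% of all genes tested, with median log2 differences of 3.21 and 4.56. At an unadjusted p under 0.05, 29 and 45 of them were higher and 0 lower, beside 3.74% of all genes higher and 6.97% lower. The G1 list had a median of 0.73, with Ccnd2, Cdk4, Rbl1 and Tfdp1 higher. Ccnd2, a D-type cyclin like Ccnd1, was at 546.6, 295.9, 276.8 and 367.3 CPM in programme cells of vehicle replicates 1 and 2 and PRT4165 replicates 1 and 2, and at 84.4, 121.5, 96.6 and 140.7 CPM in the others, a log2 difference of 1.71 (SE 0.38, edgeR adjusted p = 0.151).

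At an adjusted p of 0.05, 5 genes were higher in programme cells (0.0453% of those tested) and 17 lower (0.154%). Of these 22 calls, 4, 0, 2 and 5 remained without vehicle replicate 1, vehicle replicate 2, PRT4165 replicate 1 and PRT4165 replicate 2, while DESeq2 called 1177 genes, all 22 among them. Among those higher were Spc25, Hmmr, Diaph3 and Esco2, which act in kinetochores, spindles, cytokinesis and sister chromatid cohesion. Spc25, a kinetochore subunit, was at 17.3, 43.9, 60.7 and 26.7 CPM in programme cells and at 0, 0.0371, 0 and 0 CPM in the others.

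The 17 lower genes were lower on all 4 plates. Dsc1, a desmosomal cadherin of the upper layers, was at 0.507, 2.82, 1.10 and 0.392 CPM in programme cells and at 153.3, 130.3, 106 and 100.1 CPM in the others (log2 difference -6.97, SE 0.75, edgeR adjusted p = 0.0356). Klk10, a secreted protease, had 0 counts in the programme cells of every plate and 209.9 to 1454 CPM in the others, where 9.09% to 19.6% of cells had a count. Rptn, Crct1, Sprr1a, Cdsn and Asprv1, all products of late keratinocyte differentiation, and Klk6, Skint2, Lypd5, Ly6g6c, Cyp3a13, Bglap3 and Slc5a9 were lower too.

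Lower genes with counts in both classes allowed a fold to be stated. Ptgr1, an enzyme that inactivates prostaglandins, was at 98.7, 41.1, 63.5 and 43.9 CPM in programme cells and at 630, 565, 751 and 375 CPM in the others, a log2 difference of -3.28 (SE 0.36, edgeR adjusted p = 0.0356). Ctsl, a lysosomal protease, differed by -3.59 (SE 0.47) and Endou by -4.90 (SE 0.61), each with an edgeR adjusted p of 0.042. Ctsl was counted in 61.5%, 50%, 53.6% and 57.7% of programme cells and in 57.9%, 66.7%, 34.1% and 54.9% of the others. Its difference thus lay in the level and not in how many cells had a count.

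The marker lists differed in direction between programme cells and the others. Of the 10 suprabasal markers 9 were lower in programme cells on all 4 plates, and of the 9 upper hair follicle markers 8 were, with median log2 differences of -3.95 and -2.63, where 13.1% of all genes tested were lower on all 4 plates. The medians of the lists were the same with the 4 genes that had a class at 0 counts (Cdca5, Ncaph, Melk and Klk10) set to the bound that 3 counts over the class allow. Krt10, the keratin of the suprabasal layers, was at 26.6, 843, 79.0 and 3613 CPM in programme cells and at 7505, 2600, 8097 and 10198 CPM in the others. Cst6, a protease inhibitor, was at 62.4, 36.4, 93.8 and 5087 CPM in programme cells and at 43878, 52571, 26959 and 50938 CPM in the others. Neither Krt10 nor Cst6 passed the adjusted threshold, with edgeR adjusted p of 0.32 and 0.0809.

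Taken per cell, the median summed level of the suprabasal list was 810 CPM in programme cells and 8768 CPM in the others, and that of the upper hair follicle list 891 and 4443 CPM. On vehicle replicate 2 the suprabasal medians were close, at 3490 and 3657 CPM, while the other plates were between 646 and 2149 CPM in programme cells and between 9441 and 11422 CPM in the others. The basal list had a median of 3055 CPM in programme cells and 1920 CPM in the others, and was the higher in programme cells on every plate. Krt14, the keratin of the basal layer, was at 1298 to 2743 CPM in programme cells and 899.6 to 2028 CPM in the others, a log2 difference of 0.52 (SE 0.22, edgeR adjusted p = 0.463).

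Bulge markers did not go one way by every measure. Of the 8 tested, 1 had a log2 difference above 0, where 4785 of 11040 genes did, and the median was -0.91. Per cell, the median summed level was 1011 CPM in programme cells and 768 CPM in the others. On vehicle replicate 2 it was 538 and 950 CPM. The list includes Postn, which the study uses as a marker of the infundibulum. Only Sox9 was lower on all 4 plates, at 20.05, 13.98, 29.7 and 31.2 CPM in programme cells and 166.9, 81.8, 70.5 and 59.8 CPM in the others, with an edgeR adjusted p of 0.274. Only Tcf7l1 was higher on all 4. Lrig1, the gene whose promoter drove the labelling, was at 9.05 to 19.2 CPM in programme cells and 13.1 to 30.2 CPM in the others, with a log2 difference of -0.67 (SE 0.69, edgeR adjusted p = 0.831).

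By its log2 differences, the sebaceous gland list lay on the other side from the suprabasal and upper hair follicle lists. Of its 9 genes tested, 8 had a log2 difference above 0 and 4 were higher in programme cells on all 4 plates, and the median was 0.94. Per cell, the median summed level of the list was 330.9 CPM in programme cells and 242.5 CPM in the others. It went the other way on PRT4165 replicate 1, at 182.96 and 359.2 CPM. On the other plates it was the higher in programme cells, though close on PRT4165 replicate 2, at 358.9 and 317.1 CPM. Scd1, a desaturase of fatty acid synthesis, was at 286.2, 3546, 1071 and 1907 CPM in programme cells and at 122.3, 49.1, 204.04 and 1311 CPM in the others, a log2 difference of 2.30 (SE 0.90, edgeR adjusted p = 0.421).

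**Figure D5:**
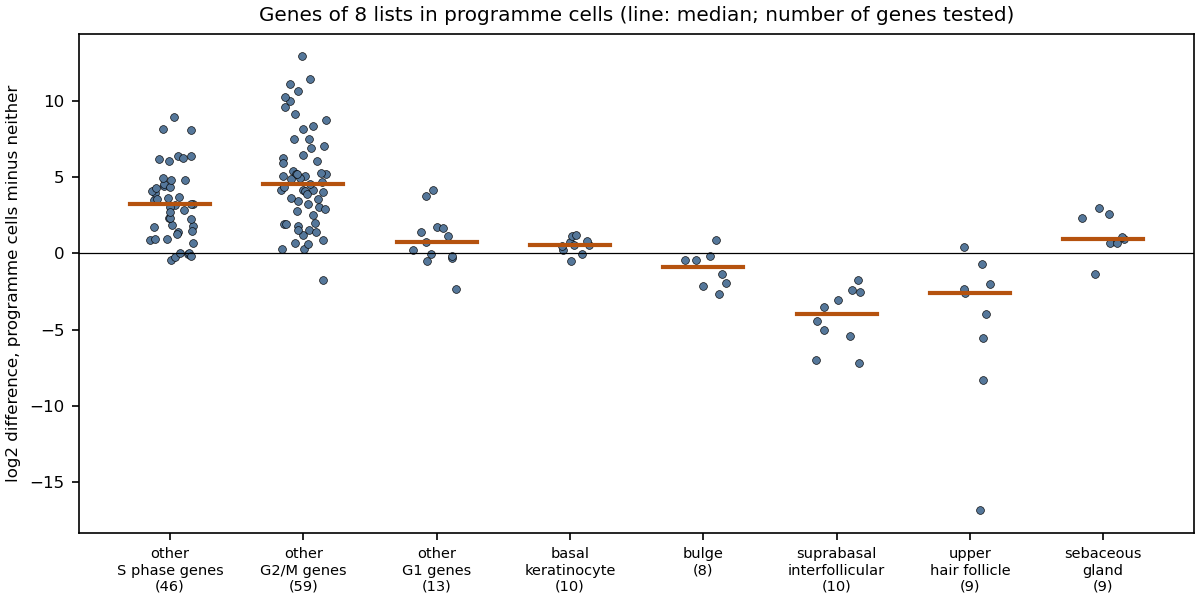
Log2 difference between programme cells and all other cells (edgeR, plate as a block) for every tested gene of 8 lists, with the list's median as a line. Suprabasal and upper hair follicle genes lie mostly below 0 and other S and G2/M genes mostly above, and for genes with a class at 0 counts the size depends on the prior count of the fit.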

How the data were processed

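Tomato-positive epidermal cells were sorted, 1 a well, and sequenced by a modified Smart-seq2 protocol without molecular identifiers. The Wilson intervals of the shares cover the error of counting cells only, and not the spread between plates. The authors quantified reads with Salmon 0.13.1 and deposited estimated counts per gene and cell, not scaled. Seurat and R 4.0.3 also stand in the submitters' processing notes, with the builds mm10 and GRCm38. Vehicle is labelled AC, and further codes in the labels differ between treatments without explanation, so an experiment they might mark cannot be told apart from treatment.

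Cells with at least 1000 genes and at most 50% mitochondrial counts were kept, as in the study. Cell totals ranged from 9796 to 3029822. No doublet caller was run. Counts were summed per plate, rounded, filtered with filterByExpr, TMM-normalized and tested with edgeR 4.0.16 (R 4.3.3), adjusting by Benjamini-Hochberg over all genes tested. DESeq2 1.42.0 was an alternative. Programme cells were compared with the others in 8 sums, with the plate as a block, and the members left out of the adjustment. Other alternatives changed the scaling, the filters, the limits of the programmes, the depth and the plates used. Checked on simulated data, the treatment fit recovered 14% of 200 genes changed 8-fold among 12380, and the programme fit 20% among 11561.

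The labels call the replicate number a batch, so the numbers pair the plates. Across 14382 genes the replicate difference in vehicle correlated with that in PRT4165 at r = 0.04. The study tested cells, which were not taken as replicates here. P-values of the treatment fit measure the spread between plates, which may be technical. Those of the programme fit, with the plate as a block, measure how the class difference varied from plate to plate.

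The members and lists were chosen with earlier results of these data known. Named with values on every plate were Mki67, Top2a, Ccnb1, Cdk1, Pcna, Mcm6 and Ccnd1, the 6 S and 8 G2/M members with most counts, and members past an unadjusted p of 0.05, and outside the members the 10 genes of smallest p in each direction past the threshold. Pole, Ccnd2, Ctsl and the list genes given with values were picked after these were seen. Some genes that the rule or the lists would name are not reported here.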

Additional observations from a re-analysis of the deposited data

How the results depend on the processing

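For members called at an adjusted p of 0.05, 11 of 12 alternatives gave 0, and DESeq2 gave 1, Rrm2. With the replicate block, 0 members were called, 3 were higher at an unadjusted p under 0.05 and the median log2 fold change was 1.21. Without 1 plate the median ranged from 0.52 to 1.91, highest without vehicle replicate 2, and the members higher at an unadjusted p under 0.05 were 1 without vehicle replicate 1 or PRT4165 replicate 1 and 11 without vehicle replicate 2. The fold change turned negative for Ccnb1 (-0.36), Ccnd1 (-0.0788), Cks2 (-0.0266) and Cenpf (-1.74) at a mitochondrial limit of 30%, for Ccnd1 (-0.22) at equal depth, and for Ccnb1 (-0.0318) without the cell with most G2/M members on each plate, an alternative chosen after seeing the data. It was negative without PRT4165 replicate 1 for Top2a, Ccnb1, Pcna, Cenpe and Cenpf, and without vehicle replicate 1 for Ccnb1 (-0.72) and Ccnd1. The range without 1 plate was -0.75 to 1.59 for Top2a, -0.83 to 1.87 for Ccnb1, -0.20 to 0.98 for Pcna, -0.11 to 3.53 for Cenpe, -1.32 to 3.0 for Cenpf and -0.57 to 1.23 for Ccnd1.  The cause was not tested.

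The S difference in share, 12.6 percentage points, was 19.4 with members counted at 1 CPM, 5.09 at 50 CPM and 19.3 at equal depth. The G2/M difference, 9.20, was 14.5 at 1 CPM, 3.26 at 50 CPM, 10.5 with 20% of members needed, 3.26 with 33% and 9.85 at equal depth. At equal depth the limit for a member was 1 count and not a CPM value. Genes higher and lower in programme cells, 5 and 17, numbered 1 and 8 at the 33% limit, 455 and 722 with DESeq2, 16 and 30 at equal depth, 15 and 55 with no low count filter, and 51 and 101 with no replicate block. Without 1 plate they were 0 and 0 to 6, and without vehicle replicate 2 no gene was called in either direction, so these calls rest on all 4 plates. With 2 plates a treatment and the recovery given above, a fold of 8 would mostly be missed.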
